A study of Caenorhabditis elegans with 2 samples.

Results

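Divergent promoters are stretches of DNA that lie between a pair of protein-coding genes transcribed away from each other. Regions bound by PHA-4 at such promoters were described here in young adult Caenorhabditis elegans. They were selected on the measured signal: the 4000 nuclear regions with the highest signal value were taken from the list that pools both replicates, and a region was kept when its summit fell in the promoter windows of coding genes on both strands. The promoter window of a transcript started 1000 bp upstream of its annotated 5' end and stopped 200 bp downstream. The rule kept 499 of 4000 regions (12.5%, exact 95% interval 11.5 to 13.5), out of 24890 regions in the whole pooled list. They are called both-strand regions below. A further 1695 of the 4000 had coding genes of 1 strand in the window (one-strand regions), and 1806 had none.

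Chromatin immunoprecipitation followed by sequencing was done on whole worms of strain OP37, which has the genotype unc-119(ed3) III; wgIs37 and carries PHA-4 fused to eGFP on the integrated transgene. Both sexes were pooled, the age in days is not known, and there was 1 group of 2 biological replicates, each from its own biosample. No library without the tag was analysed here, so the signal is not set against a control immunoprecipitation. Whole animals were used, so a region cannot be assigned to a tissue, and a summit in the windows of both genes does not show which of them is regulated.

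PHA-4 is the FoxA forkhead factor of C. elegans. It specifies the pharynx in the embryo and acts in the adult in responses to food and in lifespan. The compact genome places many genes head to head, so that the same stretch of DNA lies upstream of both. Many annotated 5' ends in this species mark the site where a leader is trans-spliced to the transcript, so a distance to a 5' end is not always a distance to the site of initiation.

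The replicates differed before any region was chosen, and the pooled list followed replicate 2. Each replicate's own list held 30000 regions. Among the nuclear ones a q value of 0.05 or less was given to 7548 in replicate 2 and to 0 in replicate 1, and the lowest nuclear q value of replicate 1 was 0.163. The highest nuclear signal was 27.0 in replicate 1 and 166.7 in replicate 2. Results on the classes of regions are therefore given for each replicate alone as well. Read depth is not given in the sources used here, and intervals cover counting error over regions only.

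The sequences of the 4 strongest both-strand regions off the first chromosome are shown because they are the core of the strongest signal. Each line gives the bases within 60 bp of the summit that are not exonic and lie between the paired 5' ends, on the plus strand of the RefSeq genome WBcel235 (ce11). The gene on the plus strand is named first. Capitals mark matches, on either strand, to 6 of the 8 short motifs described later; the TATA box and the homeodomain site are not marked.
K11H12.8/rpl-15 (chrIV:654867-654987): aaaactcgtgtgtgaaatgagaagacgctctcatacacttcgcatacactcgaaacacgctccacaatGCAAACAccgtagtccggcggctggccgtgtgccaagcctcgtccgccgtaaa
Y17G9B.5/rpl-20 (chrIV:4750005-4750125): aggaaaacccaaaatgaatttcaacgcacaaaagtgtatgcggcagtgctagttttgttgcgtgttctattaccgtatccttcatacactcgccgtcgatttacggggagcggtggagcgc
F54C9.14/iff-2 (chrII:8561368-8561480): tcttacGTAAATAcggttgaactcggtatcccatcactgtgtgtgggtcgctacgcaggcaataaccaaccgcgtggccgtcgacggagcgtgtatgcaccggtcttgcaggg
tasp-1/K01G5.10 (chrIII:10759188-10759306): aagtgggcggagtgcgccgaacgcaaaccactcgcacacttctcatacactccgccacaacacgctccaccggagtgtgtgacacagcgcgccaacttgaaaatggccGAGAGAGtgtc
The stretch at rpl-15 holds 1 forkhead-type match, the reverse complement of TGTTTGC, and that at rpl-20 holds none of the 8 motifs. The stretch at iff-2 begins close to a forkhead-type match, and the one at tasp-1 ends in a GAGA repeat.

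The other 4 sequences are examples of motifs on which the classes were compared. For each motif the strongest region was taken that lay off the first chromosome, was not among the strongest regions already taken for printing and held the motif inside the stretch that could be printed, so stronger regions also hold these motifs. The first shows the GATA site TGATAA on the minus strand (TTATCA), the second the CG repeat CGCGCG, the third the E-box CACGTG, and the last a forkhead-type match.
Y57G11C.3/mrps-7 (chrIV:14767871-14767991): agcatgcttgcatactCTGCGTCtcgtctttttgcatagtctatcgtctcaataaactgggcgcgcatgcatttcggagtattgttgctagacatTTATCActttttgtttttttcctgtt
htz-1/wapl-1 (chrIV:4445854-4445974): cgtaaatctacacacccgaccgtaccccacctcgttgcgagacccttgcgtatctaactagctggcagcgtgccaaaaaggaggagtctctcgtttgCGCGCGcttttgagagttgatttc
mex-1/W03C9.5 (chrII:11967645-11967765): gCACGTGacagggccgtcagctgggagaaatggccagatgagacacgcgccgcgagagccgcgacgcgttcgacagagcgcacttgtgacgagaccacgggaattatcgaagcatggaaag
K04G7.1/syf-2 (chrIII:7162457-7162577): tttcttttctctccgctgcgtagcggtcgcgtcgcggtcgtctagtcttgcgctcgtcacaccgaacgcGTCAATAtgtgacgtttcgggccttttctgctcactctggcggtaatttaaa
The first lies between mrps-7, a protein of the mitochondrial ribosome, and Y57G11C.3. It also holds CTGCGTC. The second lies between htz-1, the histone variant H2A.Z, and wapl-1, a cohesin release factor. In each the capitals are the matches found by the search, and a match is a description of the letters and not of a bound site.

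Ribosomal protein genes led the both-strand regions. Of the 20 strongest, 9 had a gene for a cytosolic ribosomal protein next to the summit. The signal was 149.9 between rpl-15 and K11H12.8 (chromosome IV at 654757 to 655096), with the summit 351 bp upstream of rpl-15 and 463 bp upstream of its partner. It was 141.1 for rpl-20 with its partner Y17G9B.5 on the same chromosome, at 4749895 to 4750234. These are proteins of the large ribosomal subunit, whose sequences are shown above. Next came iff-2, which encodes translation factor eIF5A, with F54C9.14 (122.7), then tasp-1 and K01G5.10 (120.6), and rps-12, a protein of the small subunit, with ska-3 (118.6).

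The values in the replicates differed for these regions. At rpl-15 the signal was 9.87 in replicate 1, at rank 1609 of its list, and 147.3 in replicate 2. At rpl-20 it was 5.30 in replicate 1, at rank 16903, and 141.6 in replicate 2. At iff-2 no region of replicate 1 overlapped, while the signal of replicate 2 was 119.6. High pooled values thus came with high values of replicate 2, and the scale of the signal is not stated, so that the levels of the lists are not compared directly. Regions that also ranked high in replicate 1 were those of hsr-9 and rps-19 (117.7 pooled, 17.1 at rank 36 in replicate 1, 110.5 in replicate 2) and of set-16, an H3K4 methyltransferase, and drr-2 (115.8, 16.2 at rank 55, 118.2).

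Other strong regions lay at genes of membrane traffic, respiration and protein folding. Between kbp-4 and rab-18, a RAB GTPase, the signal was 107.2 and the summit lay 30 bp inside rab-18. It was 96.5 between cox-6B, a subunit of cytochrome c oxidase, and Y71H2AM.20, and 83.5 between alh-9 and cct-6, a subunit of the chaperonin CCT. Between lin-54, the DNA-binding subunit of the DREAM complex, and rpl-12 it was 83.3, with no region in replicate 1. The remaining 9 of the 20 had signals from 76.3 to 115.9. They lay at ekl-4 and rps-20 (115.9), F36A2.9 and rps-15 (97.2), rps-1 and ifet-1 (83.3), dpm-3 and rps-23 (82.0), rfc-4 and eef-1A.1 (81.0), scpr-1 and gpap-1 (80.6), vha-1 and sqv-3 (78.6), K04G7.1 and syf-2 (78.0), and C06B3.7 and C06B3.6 (76.3). Of the 20, 7 had no region in the list of replicate 1 and all 20 had one in replicate 2.

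Both-strand regions were more frequent toward the top of the ranking. By construction they had signals between 22.3 and 149.9, with a median of 35.01 and quartiles of 27.3 and 45.1. Of the 500 strongest pooled regions 108 (21.6%) were in windows of both strands, and the share was 17.0% in the next 500, 13.8% in the third and 7.20% in the last 500 of the 4000. The median rank was 1366 for both-strand, 2000 for one-strand and 2150.5 for other regions. Of the 499, 168 (33.7%) were in the authors' optimal list, against 3.37% of the whole pooled list, and all 499 were at a q value of 0.05 or less, against 16.3% of that list; since the same signal chose them, these shares describe the choice.

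**Figure D1:**
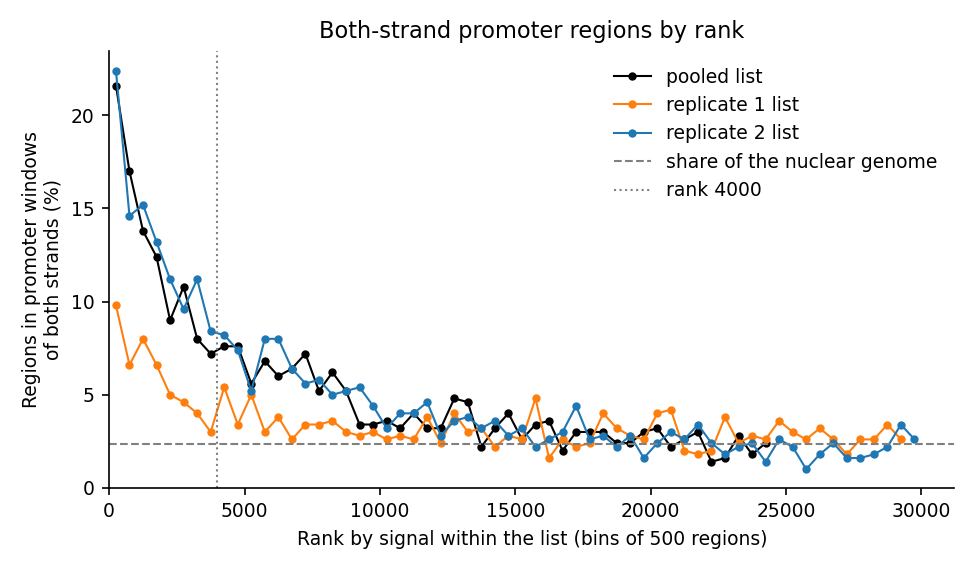
Share of regions (percent, y axis) with coding-gene windows on both strands in successive bins of 500 regions by signal rank (x axis), for the pooled list and each replicate alone; the dashed line is the share of the nuclear genome in such windows. In the pooled list the share fell from 21.6% in the strongest bin to 7.20% in the last of the 4000, whereas the strongest bin of replicate 1 was at 9.80%.

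The plot of shares by rank shows the same downward course for the pooled list and replicate 2, and a flatter one for replicate 1. Windows of both strands cover 2.35% of the nuclear genome (2.35 Mb), so that the 499 regions amount to 212 per Mb. One-strand windows, with 23.9% of the genome, held 70.7 per Mb and the remaining genome 24.4. In the lower 50% of the pooled list by signal the figures were 151, 144 and 117 per Mb, and 355 of 12445 regions (2.85%, interval 2.57 to 3.16) were both-strand. Among the 4000 strongest of replicate 2 alone, 529 were both-strand (13.2%, interval 12.2 to 14.3). Among those of replicate 1 alone, 238 were (5.95%, interval 5.24 to 6.73), or 101 per Mb against 55.8 in one-strand windows. The order of the classes was the same in each, and the gap was smaller in replicate 1.

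The lowest both-strand regions were at cit-1.2 and cit-1.1, the genes of cyclin T proteins (22.4, rank 3954), H10E21.1 and nhr-80, a nuclear hormone receptor gene (22.4, rank 3970), and Y92H12BR.7 and Y92H12BM.1 (22.3, rank 3996). The next outside the 4000 were lgmn-1 and T28H10.2 (22.3, rank 4013), Y34B4A.7 and mtm-5 (22.3, rank 4016) and syf-1 and T03F1.12 (22.2, rank 4038). The signal on either side of the boundary was nearly the same.

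The 499 regions lay at 482 distinct pairs of nearest 5' ends. Of these pairs 466 had 1 region, 15 had 2 and 1 had 3, and 20 regions overlapped another both-strand region, so they are not independent observations. At 465 regions the windows belonged to exactly 2 genes and at 34 to 3. In 474 cases the pair were immediate neighbours placed head to head. The pair with 3 regions was aco-2, mitochondrial aconitase, and eef-1B.1, an elongation factor subunit (55.8, 40.4 and 25.3). Pairs with 2 regions included vha-1 and sqv-3 (78.6 and 32.8), glit-1 and dnj-14 (73.3 and 32.0), mut-15 and fib-1, the nucleolar protein fibrillarin (69.4 and 39.2), and M03C11.3 and hat-1 (61.7 and 26.8). In these 4 pairs both pooled regions overlapped the same region of each replicate. At 34 regions the summit lay in a non-coding gene, of which 3 were tRNA genes (the regions of pqn-71 and rocf-1, mom-1 and lev-9, and cpr-9 and gcy-33, named after their values were seen).

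Summits lay mostly in the shared upstream sequence, which the window favours, since it reaches 1000 bp upstream but only 200 bp downstream. Of the 499, 444 were between the paired 5' ends, 31 lay inside the start of the plus-strand gene and 24 inside that of the minus-strand gene. At 1 pair, Y71G12B.2 and Y71G12B.32, the paired 5' ends crossed (a gap of -38 bp); it was named after its values were seen. The distance between paired 5' ends had a median of 523 bp (95% interval 471 to 561, quartiles 320.5 and 778.5) and a maximum of 1771 bp. The nearer 5' end was a median of 141 bp away (interval 128 to 154, quartiles 64 and 224.5), the farther 360 bp. The summit was nearer to the plus-strand gene in 261 regions and to the minus-strand gene in 236. Under the same window, 255 of 355 summits in the lower 50% of the pooled list were between the paired 5' ends. In replicate 1 alone 176 of 238 were, and in replicate 2 alone 476 of 529.

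The midpoint of the gap was within 100 bp of the summit in 253 of 499 regions (50.7%). Among the 444 summits between the 5' ends, 205 (46.2%, interval 41.5 to 50.9) were in the middle part when the gap is split into 3 equal parts, 113 in the lower and 126 in the upper one. The window rule itself favours the middle of long gaps, so these counts are set beside the lower 50% of the pooled list, where the same rule applies. There 102 of 355 (28.7%) lay within 100 bp of the midpoint, but the gaps were longer, with a median of 692 bp. Relative to the gap, 43.5% (interval 37.4 to 49.9) of the summits between the 5' ends were in the middle part there, 40.9% (interval 33.6 to 48.6) in replicate 1 alone and 48.3% in replicate 2 alone, and these intervals overlap that of the 499. In replicate 2 alone the share within 100 bp was 51.0% and in replicate 1 alone 36.1%. At one-strand regions the nearest 5' end was a median of 236 bp away (interval 219 to 251), and 1520 of 1695 were upstream of it. That value is not compared with the 141 bp above, which is the smaller of a pair of distances and was also 141 bp in the lower 50% of the pooled list.

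**Figure D2:**
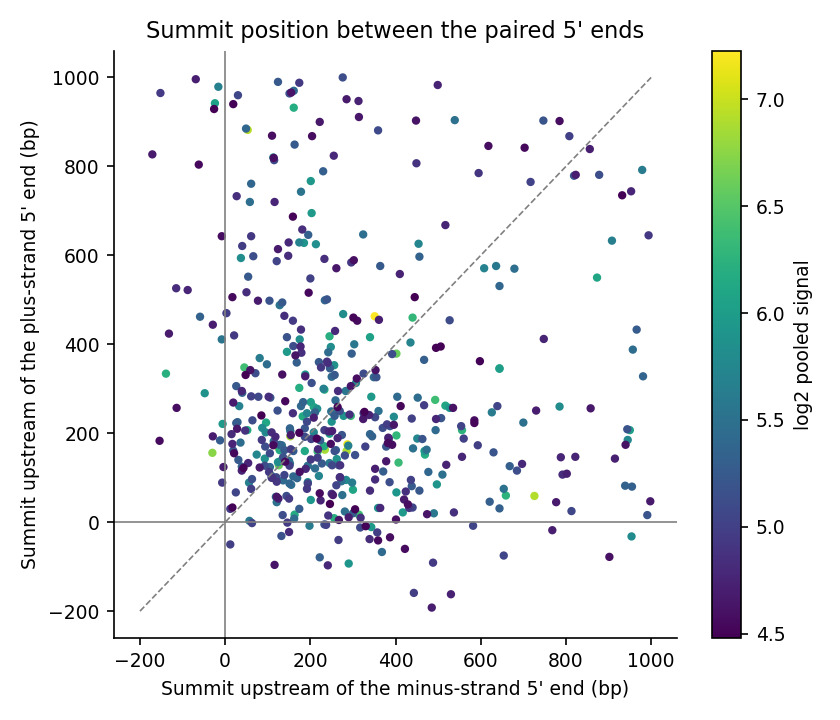
Distance of each of the 499 summits upstream of the plus-strand 5' end (y axis, bp) against its distance upstream of the minus-strand 5' end (x axis, bp), coloured by log2 of the pooled signal. The dashed diagonal marks summits midway between the 5' ends, and 253 of the 499 lay within 100 bp of the midpoint.

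In the plot of summit position, strong signals lie both near the diagonal and far from it. The summit lay 379 and 402 bp upstream of F36A2.9 and rps-15 (signal 97.2). At F54C9.14 and iff-2 the distances were 882 and 53 bp (signal 122.7). The median signal was nearly the same at every spacing of the genes. It was 34.8 at the 67 regions with gaps under 250 bp, 35.1 at the 174 with 250 to 500 bp, 34.97 at the 199 with 500 to 1000 bp and 35.04 at the 59 with longer ones. The nearer 5' end moved from a median of 43 bp away in the shortest gaps to 113, 193 and 412 bp in the longer ones.

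Most head-to-head pairs had no region among the 4000. The annotation has 2561 neighbouring pairs with at most 2000 bp between the 5' ends, and 461 (18.0%, interval 16.5 to 19.5) had one. The share was 18.0% of the 373 pairs closer than 250 bp, 31.5% (interval 27.6 to 35.6) of the 543 at 250 to 500 bp, 21.3% of the 830 at 500 to 1000 bp and 5.64% of the 815 at longer distances, where the windows cover only part of the gap. Replicate 2 alone gave 498 pairs (19.4%) and replicate 1 alone 208 (8.12%), and the lower 50% of the pooled list 289 (11.3%).

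Chromosome X held few of the regions. Of its 768 pooled regions among the 4000, 20 (2.60%, interval 1.60 to 3.99) were both-strand, and 317 were one-strand. The share was between 12.5% and 17.3% on the autosomes, highest on chromosome III with 119 of 686 (interval 14.6 to 20.4). X also has fewer head-to-head pairs, with 10.05 per Mb against 25.2 to 31.7 on the autosomes. Of the 178 pairs on X, 18 (10.1%) had a region, against 13.1% on chromosome V, 16.1% on II, 17.7% on IV, 22.2% on I and 28.1% on III. Replicate 1 alone placed 8 and replicate 2 alone 21 both-strand regions on X.

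Genes of the cytosolic ribosome, translation and the proteasome were well represented in the pooled list. Over all 19973 protein-coding genes, 996 (4.99%) had a both-strand region, 1537 (7.70%) had only a one-strand region and 17440 had neither. The lists were made by gene symbol, so genes of the same complex with other symbols are not counted. A region is counted for every gene whose window holds its summit, also where another gene is nearer. At nhr-232, for example, the summit lay 964 bp upstream, and 151 bp upstream of its partner rop-1. The region counted for rab-7 had mex-1 and W03C9.5 as its nearest pair. Of 81 genes with an rpl, rps or rla symbol, 41 (50.6%) had a both-strand region and 21 only a one-strand one. Many of these genes sit head to head with a neighbour, and of the 49 that do, 41 (83.7%) had a both-strand region, against 18.1% of all 5121 paired genes. Of the 32 ribosomal protein genes with no such neighbour, 20 (62.5%) had a region of some kind, against 9.71% of all unpaired genes. These regions concentrated at the top: 11 of the 50 strongest both-strand regions had such a gene, and 0 of the 50 weakest. The rule used the signal, so the shares are given with no test. Expression was not analysed here, so the lists are not compared with genes of like expression.

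Among 33 translation factor genes, 12 (36.4%) had a both-strand region, led by iff-2 (122.7), eef-1A.1 (81.0) and eef-2, elongation factors (74.4). Of the 19 that are paired head to head, 63.2% had one. For mitochondrial ribosomal proteins the count was 11 of 70 (15.7%), with mrps-7 (64.3), mrpl-12 (41.1) and mrpl-45 (40.5) highest, and for tRNA synthetases 3 of 32 (kars-1 at 38.4, ears-2 at 33.0 and aars-1 at 30.6). Of 33 proteasome genes, 11 (33.3%) had one, led by rpn-3, a subunit of the regulatory particle (65.7), pbs-1 of the core (59.9) and rpn-5 (52.1). The 7 snRNP genes, which act in splicing, had 4: snr-3 (58.0), snr-6 (30.1), snr-1 (28.8) and snr-2 (24.1). With replicate 1 alone the counts were 4 for translation factors, 4 for mitochondrial ribosomal proteins, 1 for tRNA synthetases, 4 for the proteasome and 2 for snRNP genes. With replicate 2 alone they were 9, 14, 3, 12 and 3.

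Among genes of energy metabolism and membrane traffic, 4 of 20 vacuolar ATPase genes had one: vha-1 (78.6), vha-8 (57.0), vha-3 (26.4) and vha-17 (23.3). Of 30 respiratory chain genes with nuo, cox, ucr or sdh symbols 6 did, and within that list cox-6B (96.5), nuo-1 of complex I (55.4) and cox-14 (46.8) were highest. Subunits with other symbols that had a both-strand region, named after their values were seen, included ndub-8 of complex I (61.0) and mev-1 of complex II (56.2). The ATP synthase had 3 of 5, atp-1 (49.1), atp-2 (42.6) and atp-3 (38.6). Of 20 RAB GTPase genes, 5 had one: rab-18 (107.2), rab-7 (72.6), rab-5 (36.9), rab-11.1 (34.5) and rab-8 (24.5). Of 59 chaperone genes 15 (25.4%) did, led by cct-6 (83.5), dnj-14 (73.3) and cct-8 (72.3). With replicate 1 alone the counts were 2 for the vacuolar ATPase, 0 for the respiratory chain, 0 for the ATP synthase, 6 for RAB GTPases and 7 for chaperones. With replicate 2 alone they were 2, 7, 4, 7 and 14. Over all 982 listed genes the count was 51 in replicate 1 alone, 136 in replicate 2 alone and 129 in the pooled list. Of the 32 genes with cdk, cyb, cyd or cdc symbols, 4 had a both-strand region in the pooled list. They were cdk-5 (57.6), cdc-6 of replication licensing (54.1), the mitotic cyclin cyb-1 (37.6) and cdk-8 (29.2). This list, named cell cycle and division in the chart, goes by symbol, and a symbol does not show that a gene acts in the cell cycle.

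Other lists had few. Of the 72 genes with a his symbol 0 had a both-strand region, though 64 are paired head to head, and 3 had a one-strand region. The count was 3 in replicate 1 alone and 0 in replicate 2 alone. The variant gene htz-1, whose sequence is shown above, is not in this list and had a both-strand region (72.4). Among 156 collagen genes 3 did, col-38 (52.9), col-2 (42.9) and col-71 (29.8), and 38 are paired. The nuclear hormone receptors had 5 of 269 (1.86%), namely nhr-68 (49.1), nhr-232 (35.2), nhr-101 (30.4), nhr-47 (27.5) and nhr-80 (22.4), while 37 (13.8%) had only a one-strand region. Of 63 ceh homeobox genes 2 did, ceh-38 (31.3) and ceh-99 (25.2). Few homeobox genes are paired, and 2 of those 10 (20%) had a both-strand region, close to the 18.1% of all paired genes. The share of paired genes was 9.09% of 44 for the receptors and 7.89% of 38 for the collagens. Near-identical gene copies, as in the histone clusters, can lose or share reads in alignment, and how these reads were treated is not given in the sources used here.

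**Figure D3:**
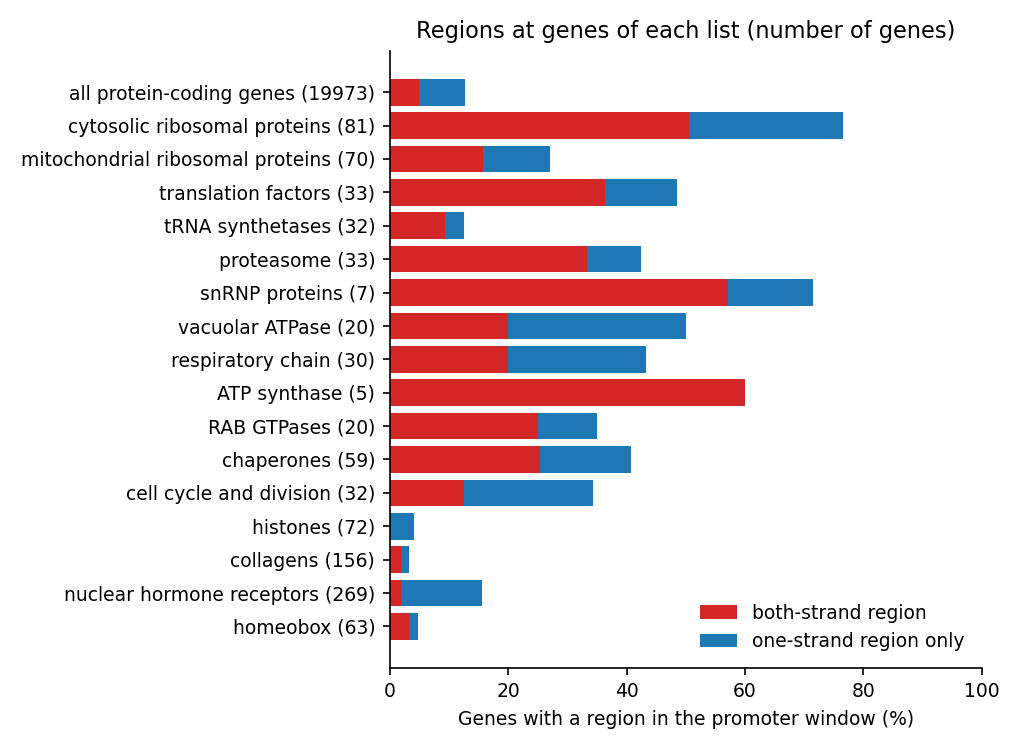
Share of the genes in each list (percent, x axis) with a both-strand region (red) or only a one-strand region (blue, stacked), with the number of genes in brackets. Cytosolic ribosomal protein genes were highest by count, with 41 of 81, and the 72 genes with a his symbol, which leave out htz-1, had 0.

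The chart of gene lists sets these shares beside 4.99% of all coding genes. Head-to-head pairing differs, with 25.6% of all genes paired and 15.9% to 88.9% in the lists. Among paired genes the share was 20% for tRNA synthetases and the cell cycle list, near 18.1% of all paired genes. It was 37.0% for mitochondrial ribosomal proteins, 40% for the respiratory chain, 43.75% for chaperones and 50% for proteasome and RAB genes. For the vacuolar ATPase it was 57.1%, for snRNP genes 66.7% and for the ATP synthase 75%. At 10 regions both genes of the pair were in a list, at 9 pairs. Ribosomal protein genes faced each other at rpl-36 and rps-14 (73.7, chromosome III at 7179663 to 7180002, 418 and 245 bp from the summit), at rps-30 and rpl-39 (46.1, 248 and 251 bp) and at rpl-24.1 and rps-10 (45.1). At rps-30 and rpl-39 the summit lay almost exactly between the 5' ends. The others were rpn-3 and hsp-110 (65.7), nuo-1 and rpl-36.A (55.4), rpl-5 and col-38 (52.9), mrpl-49 and rpl-28 (38.2), rpl-7 and rab-11.1 (34.5 and 25.7) and nhr-47 and dnj-19 (27.5). Of the collagen and receptor genes named above, col-38 and nhr-47 thus shared their region with another listed gene.

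Sequence differed between both-strand and one-strand regions in 3 of 8 motifs (37.5% of those tested). The first was TRTTKRY, a consensus for PHA-4, where R stands for a purine, Y for a pyrimidine and K for a keto base (guanine or thymine). The GAGA repeat was GAGAGAG. The E-box CACGTG is bound by basic helix-loop-helix factors. TGATAA is bound by the GATA factors ELT-2 and ELT-7 of the intestine. A further element, of no named factor, was CTGCGTC. The TATA box was searched as TATAAA. Homeodomain proteins bind TAATTA. The CG repeat was CGCGCG. Each was searched on both strands from 100 bp before to 100 bp after the summit. Shares were compared with two-sided Fisher's exact tests, adjusted by the Benjamini-Hochberg method over the 8 motifs. The test compares classes of regions, which neighbour or overlap in places, and not samples. The 8 motifs were chosen with earlier results of these data known, and the adjusted p-values do not allow for that choice.

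GATA sites were rarer at both-strand than at one-strand regions. TGATAA was found at 86 of 499 both-strand regions (17.2%, interval 14.0 to 20.8) and at 552 of 1695 one-strand regions (32.6%, interval 30.3 to 34.9), a difference of -15.3 percentage points (Fisher's exact test, odds ratio 0.431, adjusted p = 6.82e-11). Regions outside windows held it in 32.9%, windows of the same width centred 200 bp upstream of all coding genes in 21.2%, and the midpoints of head-to-head pairs in 19.4%. In the lower 50% of the pooled list the shares were 23.9% and 21.9%. The motif also overlapped a TRTTKRY match in 9 of the 55 both-strand regions that hold both. In replicate 1 alone the difference was turned, with 23.1% against 20.5% (adjusted p = 0.695, Fisher's exact test).

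Compared with one-strand regions, both-strand regions held the E-box less often and the CG repeat more often. CACGTG was at 25 both-strand regions (5.01%, interval 3.27 to 7.31) and 165 one-strand regions (9.73%, interval 8.36 to 11.2; Fisher's exact test, odds ratio 0.489, adjusted p = 0.00201). It was at 3.33% of the sequence upstream of all genes. In replicate 1 alone its shares were 3.78% and 4.57% (adjusted p = 0.899, Fisher's exact test). CGCGCG was at 49 both-strand (9.82%, interval 7.35 to 12.8) and 69 one-strand regions (4.07%, interval 3.18 to 5.12; Fisher's exact test, odds ratio 2.57, adjusted p = 1.04e-05), against 2.23% upstream of all genes. It passed the threshold in replicate 1 alone as well (5.88% against 1.80%, adjusted p = 0.00579, Fisher's exact test). For the 12445 pooled regions lowest by signal, CGCGCG was at 4.23% of 355 both-strand and 1.54% of 3440 one-strand regions. Midpoints of head-to-head pairs held it in 3.48%. The CGCGCG difference thus had the same direction outside the 4000 strongest regions, where it was not tested. The CACGTG difference was not past the threshold among the 2000 weaker of the 4000 regions or with the 1500 bp window, nor the CGCGCG difference among those 2000 or in a pooled list as short as the optimal list. The G and C content of the windows had the same median, 38.3%, in both classes.

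The forkhead consensus was common in both classes, with no difference past the threshold. TRTTKRY was at 285 both-strand regions (57.1%) and 59.5% of one-strand regions (Fisher's exact test, odds ratio 0.905, adjusted p = 0.351). In a pooled list as short as the optimal list the difference did pass it (46.4% against 61.6%, adjusted p = 0.00509, Fisher's exact test). The consensus was at 52.6% of the sequence upstream of all genes and 54.2% of pair midpoints, so its share in these windows is high throughout the genome. Among the 285, the nearest match was a median of 36 bp from the summit, and in 110 (38.6%) it was within 25 bp. GAGAGAG (9.42% against 12.6%) and CTGCGTC (9.22% against 12.4%, both with adjusted p = 0.094, Fisher's exact test) did not pass the threshold, though CTGCGTC passed it under 3 and GAGAGAG under 3 of the other settings tried. TATAAA (16.4% against 18.5%) and TAATTA (7.41% against 6.08%, both with adjusted p = 0.351, Fisher's exact test) did not pass it. GAGAGAG was at 4.60%, CTGCGTC at 3.07%, TATAAA at 25.04% and TAATTA at 11.8% of the sequence upstream of all genes. A window with no match says only that these letters are not in it, as at 98 of the 499 regions, which held none of the 8.

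**Figure D4:**
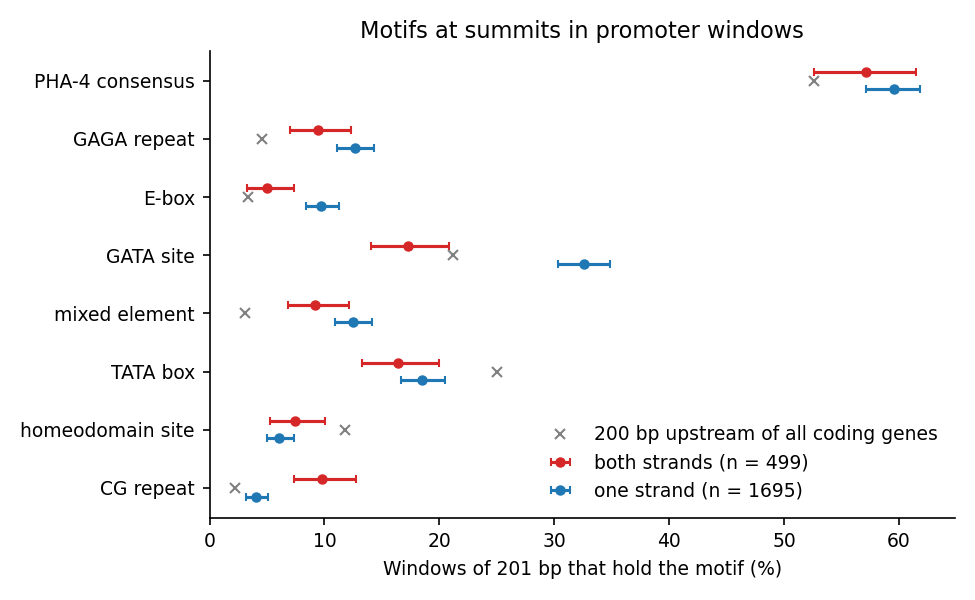
Percent of windows, 100 bp each side of the summit, that hold each motif, at both-strand and one-strand regions, with exact 95% intervals as bars. Grey crosses mark windows centred 200 bp upstream of all coding genes. The GATA site (TGATAA) stood at 17.2% of both-strand and 32.6% of one-strand regions, and the CG repeat (CGCGCG) at 9.82% and 4.07%.

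As the plot of motif shares shows, the intervals of the classes do not overlap for the GATA site, the E-box and the CG repeat. Within the 499 the regions strongest by pooled signal held fewer forkhead and GATA matches. TRTTKRY was at 46.4% of the 168 in the optimal list and 62.5% of the others, and TGATAA at 8.93% and 21.5%. These shares are descriptions, since the list was set by the same signal. Of the sequences shown above, those at rpl-20 and rpl-15 are examples with no or few motif matches at a very high signal.

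Replicate 2 held nearly all of the both-strand regions, and replicate 1 fewer, as in the other classes. A region of replicate 2 overlapped 99.9% of the one-strand regions and 99.8% of those outside promoter windows. For replicate 1 these shares were 62.7% and 64.3%. Some region of replicate 2 overlapped 497 of the 499 (99.6%), with signals from 7.69 to 147.3 and a median of 31.3, and 488 of these were at a q value of 0.05 or less. A region of replicate 1 overlapped 309 (61.9%), with signals from 4.06 to 18.2 and a median of 7.69, and 0 had such a q value. Only Y49E10.21 and scav-3 (28.4 pooled, 16.9 at rank 42 in replicate 1) and ehbp-1 and nstp-10 (23.2 pooled, 13.1 at rank 297) had none in replicate 2. The strongest in replicate 1 was between C27C12.4 and C27C12.1 on X (52.9 pooled, 18.2 at rank 21 in replicate 1, 34.5 in replicate 2). These 3 regions were named after their values were seen.

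Against the 4000 strongest regions of each replicate, 444 of the 499 (89.0%, interval 85.9 to 91.6) overlapped one of replicate 2, where 81.2% of all 4000 pooled regions did. Of the one-strand regions 81.1% (interval 79.2 to 83.0) did. The pool holds the reads of both replicates and both-strand regions rank higher in it, so these shares are given with no test. Within the 2000 strongest pooled regions they were 98.2% and 97.9%, and among the 2000 weaker ones 72.0% and 64.3%. For replicate 1, 139 (27.9%, interval 24.0 to 32.0) overlapped, against 27.5% of all 4000 and 26.5% of one-strand regions (interval 24.4 to 28.7). In all, 111 regions (22.2%) were among the strongest of both replicates and 27 of neither. Of the 1695 one-strand regions 319 (18.8%) were among the strongest of both and 190 of neither. For the 1806 regions outside promoter windows the counts were 356 (19.7%) and 221.

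**Figure D5:**
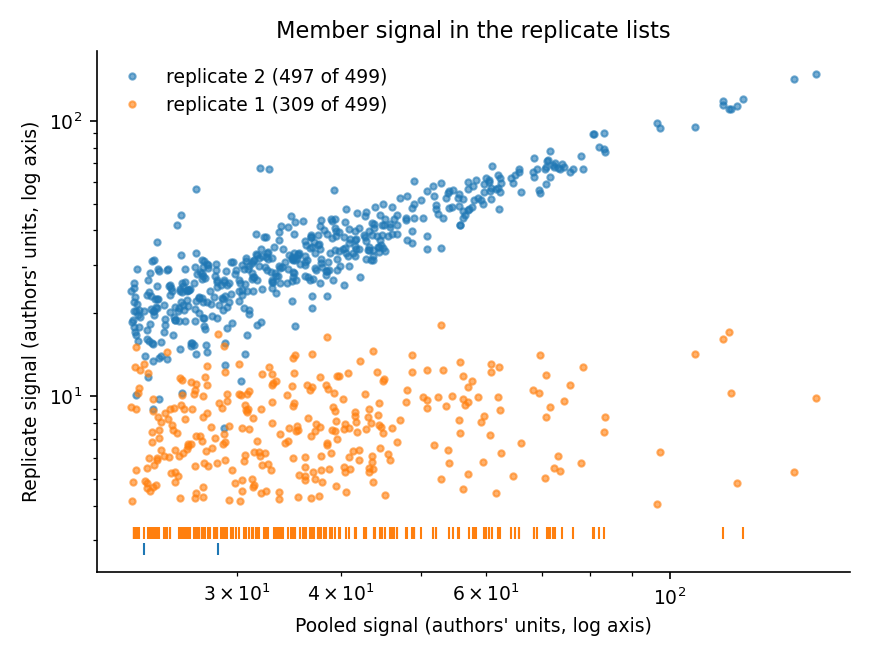
Signal of the overlapping region in replicate 1 (orange) and replicate 2 (blue) on the y axis against the pooled signal of the both-strand regions on the x axis, both on log axes in the authors' units. Ticks at the bottom mark regions with none in that replicate, where 309 of 499 had one in replicate 1 and 497 in replicate 2.

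In the plot of replicate signals the values of replicate 2 climb with the pooled signal, which holds its reads, while those of replicate 1 did not exceed 18.2. Replicate 1 alone placed a both-strand region at 12 ribosomal protein genes, where the pooled list had 41.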

How the data were processed

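ChIP-seq peak lists of 2 biological replicates were used. The authors deposited narrowPeak lists on ce11 for each replicate, for the pooled alignments, and an optimal list of regions that passed the irreproducible discovery rate step. The deposited signal value of each region is the authors' own and its scaling is not stated, so it served to rank regions within a list. The deposited lists also give −log10 of the q-value. For the aligner, the peak caller, its threshold and the read depth, nothing is given in the sources used here. Lists on ce10 were not used.

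Summits were assigned with all transcript 5' ends of 19973 protein-coding genes (Ensembl release 115, WBcel235), and sequence was read from the RefSeq genome of the same build. Overlap required at least 1 bp. Head-to-head pairs were neighbours on opposite strands at most 2000 bp apart. Shares have exact Clopper-Pearson and medians order-statistic 95% intervals. Both-strand and one-strand regions were tested only on sequence, which the rule did not use, with Fisher's exact test and Benjamini-Hochberg adjustment at 0.05. A test of overlap with each replicate's list was also planned; the pool holds both replicates' reads, so no p is given for it. Regions are not independent, and p-values compare regions, not animals. Only the Fisher and Benjamini-Hochberg steps were tried on simulated data, with independent counts at the real class sizes. Python 3.11.15, numpy 2.4.6, pandas 2.3.3, scipy 1.17.1 and matplotlib 3.10.9 were used.

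The text names the 20 strongest members, the 3 strongest per gene list (all where 5 or fewer), pairs with both genes listed, the 5 pairs with most regions (ties by signal) and the 3 regions on each side of the rank limit, and prints sequence at the strongest regions off the first chromosome and, for each called motif and the forkhead consensus, at the strongest further region with the motif inside the printed stretch; gene lists were defined by symbol. The members, lists and motifs were chosen with earlier results of these data known. Alternatives varied the number of regions, the window, the 5' ends, the motif width, the overlap and the replicate.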

Additional observations from a re-analysis of the deposited data

How the results depend on the processing

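Each comparison was repeated under other settings, of which G and C content, chromosome X, summits within 300 bp of a 5' end, rank bands and overlapping regions were added after seeing the data. The share of both-strand regions (12.5%) was 20.02% in the optimal list. A pooled list cut to the same length (the short list) held the same both-strand regions, so its equal share is not a separate result. The share was 16.2% among the 2000 strongest and 5.95% to 13.2% in 1 replicate alone. It was 8.48% with a window of 500 bp upstream to 100 bp downstream and 16.4% with 1500 to 300 bp. The count of motifs past the threshold (3) was 5 without chromosome X, 1 at the weaker 2000 of the 4000 pooled regions and 1 to 3 in 1 replicate alone. Of 104 motif comparisons over 13 settings, 83 kept their direction and their side of the threshold. TGATAA was past it in every setting run except replicate 1 alone, where its difference ranged, with replicate 2 alone, from -16.3 to 2.60 percentage points. CACGTG was not past it with the 1500 bp window (adjusted p = 0.0587), at the weaker 2000 (0.196) and in replicate 1 alone, and CGCGCG not in the short list (0.589) or at the weaker 2000 (0.199; Fisher's exact tests). Calls gained by Fisher's exact test were TRTTKRY in the short list (46.4% against 61.6%, adjusted p = 0.00509), CTGCGTC in the short list (0.0432), the 2000 strongest (0.0127) and without X (0.0456), and GAGAGAG with the 1500 bp window (0.0364), the 50 bp motif window (0.0261) and without X (0.046). Differences changed sign for TATAAA (1.98 points) and TAATTA (-0.325) in the short list, TAATTA with a motif window of 50 bp (-0.297) and at 35 to 45% G and C (-0.820), TRTTKRY (2.82) and CTGCGTC (0.0142) at the weaker 2000, and in 1 replicate alone TRTTKRY ranged from -3.97 to 5.68 and TATAAA from -2.72 to 2.89. For overlap with replicate 1, given with no test, the difference (1.37 points) was -0.281 against a list of that length, -0.731 against its whole list and -1.74 within the 2000 strongest pooled regions. For replicate 2 (7.86 points) it was -0.283 against the whole list, 0.271 within the 2000 strongest and 7.66 at the weaker 2000. The median distance to the nearer 5' end (141 bp) was 159.5 bp in the short list. Head-to-head pairs with a region (18.0%) were 6.40% with the short list and 12.03% with the 2000 strongest, and 8.12% to 19.4% in 1 replicate alone. Listed genes with a both-strand region (129) were 67 with the short list and 51 to 136 in 1 replicate alone. The causes of these changes were not tested, except that a smaller list of regions covers fewer genes by construction. No paired analysis was possible because there is 1 group. Read depth is unknown, and with 0 nuclear regions at a q value of 0.05 replicate 1 alone limits what can be said of both.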

Other observations

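A string of letters recurred in the printed sequences of the strongest regions and was counted after it was seen there, so its counts are given with no test. ATACACT, searched on both strands within 100 bp of the summit, was at 4 of the 20 strongest both-strand regions (20%, exact 95% interval 5.73 to 43.7), 7 of the 100 strongest (7%) and 22 of all 499 (4.41%, interval 2.78 to 6.60). Among one-strand regions it was at 1 of the 100 strongest and 40 of 1695 (2.36%, interval 1.69 to 3.2), and it was at 46 of the 1806 regions outside promoter windows (2.55%). Midpoints of head-to-head pairs held it in 3.05% and windows centred 200 bp upstream of all coding genes in 2.19%. In the lower 50% of the pooled list it was at 7 of 355 both-strand regions (1.97%). Both-strand regions of replicate 1 alone held it in 9 of 238 cases (3.78%) and those of replicate 2 alone in 18 of 529 (3.40%). The intervals of the 499 and of the one-strand regions overlap.

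Of the 499 regions, 41 had the farther 5' end more than 900 bp away and 10 had the summit more than 100 bp inside the start of a gene, so these lay at the margin of the window that defines a both-strand region.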
